A study of Vigna subterranea with 10 samples.

Results

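Circadian clock and photoperiod genes were followed in leaflets of bambara groundnut (Vigna subterranea), an African grain legume, on an array designed for soybean. The members were 11 probe-sets naming 8 genes, of 36578 soybean probe-sets in the table. They were the probe-sets of GIGANTEA, pseudo-response regulator 5 (PRR5) and pseudo-response regulator 7 (PRR7) that the study matched to the soybean gene models Glyma02g08680.1, Glyma04g40640.1 and Glyma11g15580.3, and every probe-set with the array symbol COL10, CRY2B, LHY, LCL3 or LUXC. GIGANTEA, PRR5, PRR7 and 1 of the 2 COL10 probe-sets were selected by the study for changing with temperature on the same arrays, and all members were chosen with the differences between temperatures known. Their levels and differences are therefore given as a description, without a test. All 11 probe-sets had values on all 9 arrays, and no filter on low values was applied.

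The study followed 3 plants of genotype S19-3 under a photoperiod of 12 h, first at 27 °C (optimal), then at 23 °C (sub-optimal) and last at 18 °C (very sub-optimal), and took 1 fully expanded leaflet per plant for each array. Each temperature thus had 3 arrays, and temperature followed the order of sampling, so it cannot be told apart from time, leaf age or earlier sampling. The hour of the day at which leaflets were taken is not given in the sources used here, and the labels give the time spent at each temperature in different ways. Replicate numbers are not tied to individual plants in the labels. All values are log2 expression values, and differences are in log2 units ± SE from a limma fit of the 9 arrays, a linear model that borrows spread across probe-sets. A difference of 1 log2 unit is a doubling of the deposited value. The table holds 1312 values above 16 and 1434 below 0, so a step beyond those stated may have been applied, and differences may not equal true log2 fold changes. Because the probes were designed for soybean, a probe-set may bind several members of a family in bambara groundnut. The medians of the 9 arrays lay between 7.89 and 8.11, with a shift of -0.12 for 18 °C against 27 °C and of -0.11 for 18 °C against 23 °C. Of 14 leaf probe-sets found by symbol (rubisco activase, CAB3 and PSAD), 8 exceeded the array median on all 9 arrays, against 1 of 11 seed probe-sets and 0 of 11 nodule probe-sets. Below the array median on all 9 arrays lay 2 of the leaf, 3 of the seed and 5 of the nodule probe-sets.

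The plant clock is a set of transcription factors and other proteins that regulate one another over the day. In Arabidopsis the MYB factors LHY and CCA1 act around dawn, the pseudo-response regulators repress them in succession through the day, and GIGANTEA and the evening complex, of which LUX is a part, act towards dusk. Clock phase and light, sensed by cryptochromes and phytochromes, meet in the CONSTANS family, through which day length sets flowering time.

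GIGANTEA, a nuclear protein that in Arabidopsis binds blue-light F-box proteins and promotes CONSTANS expression, was higher at each lower temperature. Its values were 8.65, 8.35 and 8.88 at 27 °C, 10.38, 9.88 and 9.72 at 23 °C and 12.44, 12.19 and 11.86 at 18 °C. Every array at 18 °C lay above every array at 23 °C, and these above every array at 27 °C. The difference was 1.36 ± 0.28 for 23 °C against 27 °C, 2.17 ± 0.28 for 18 °C against 23 °C and 3.54 ± 0.28 for 18 °C against 27 °C (n = 3 arrays per temperature). Leaving out any 1 of the 9 arrays kept the last between 3.40 and 3.69. The probe-set carries 2 soybean loci in the array annotation. As in any bulk tissue, a change in RNA per cell and a change in the share of cells of a type cannot be told apart here.

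PRR5, a repressor of the dawn genes in Arabidopsis, followed the same order of temperatures. It stood at 8.16, 8.40 and 7.43 at 27 °C, at 10.51, 8.95 and 8.85 at 23 °C and at 12.23, 12.35 and 11.61 at 18 °C. The groups did not overlap, although replicate 1 at 23 °C lay well above the other two. The differences were 1.44 ± 0.47, 2.62 ± 0.47 and 4.07 ± 0.47 for 23 °C against 27 °C, 18 °C against 23 °C and 18 °C against 27 °C, respectively. Without single arrays the first of these ranged from 0.90 to 1.74. At 23 °C the highest of the 3 leaflets in GIGANTEA, replicate 1, was also the highest in PRR5, and at 18 °C replicate 3 was the lowest in both. At 27 °C replicate 3 was the highest in GIGANTEA and the lowest in PRR5.

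PRR7, which acts earlier in the day than PRR5 in Arabidopsis, went another way, being lowest at 23 °C. It stood at 12.25, 11.95 and 12.72 at 27 °C, at 9.64, 9.82 and 9.79 at 23 °C and at 10.31, 10.55 and 10.43 at 18 °C. The leaflets at 18 °C thus lay between the other groups, with no overlap. The differences were -2.55 ± 0.24 for 23 °C against 27 °C and -1.88 ± 0.24 for 18 °C against 27 °C, and the 18 °C leaflets were 0.68 ± 0.24 above those at 23 °C. Leaving out single arrays kept the first between -2.73 and -2.35. A further probe-set that the study described as pseudo-response regulator 7 was matched to a separate gene model, Glyma12g07861.3, and is no member. This further probe-set stood at 9.90, 10.35 and 9.67 at 27 °C, at 8.63, 5.49 and 8.69 at 23 °C and at 7.54, 8.24 and 8.45 at 18 °C. All 6 leaflets at the lower temperatures lay below those at 27 °C, and the 23 °C and 18 °C leaflets overlapped. Its differences from 27 °C were -2.37 ± 0.79 at 23 °C (limma adjusted p = 0.309) and -1.90 ± 0.79 at 18 °C (limma adjusted p = 0.331).

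**Figure D1:**
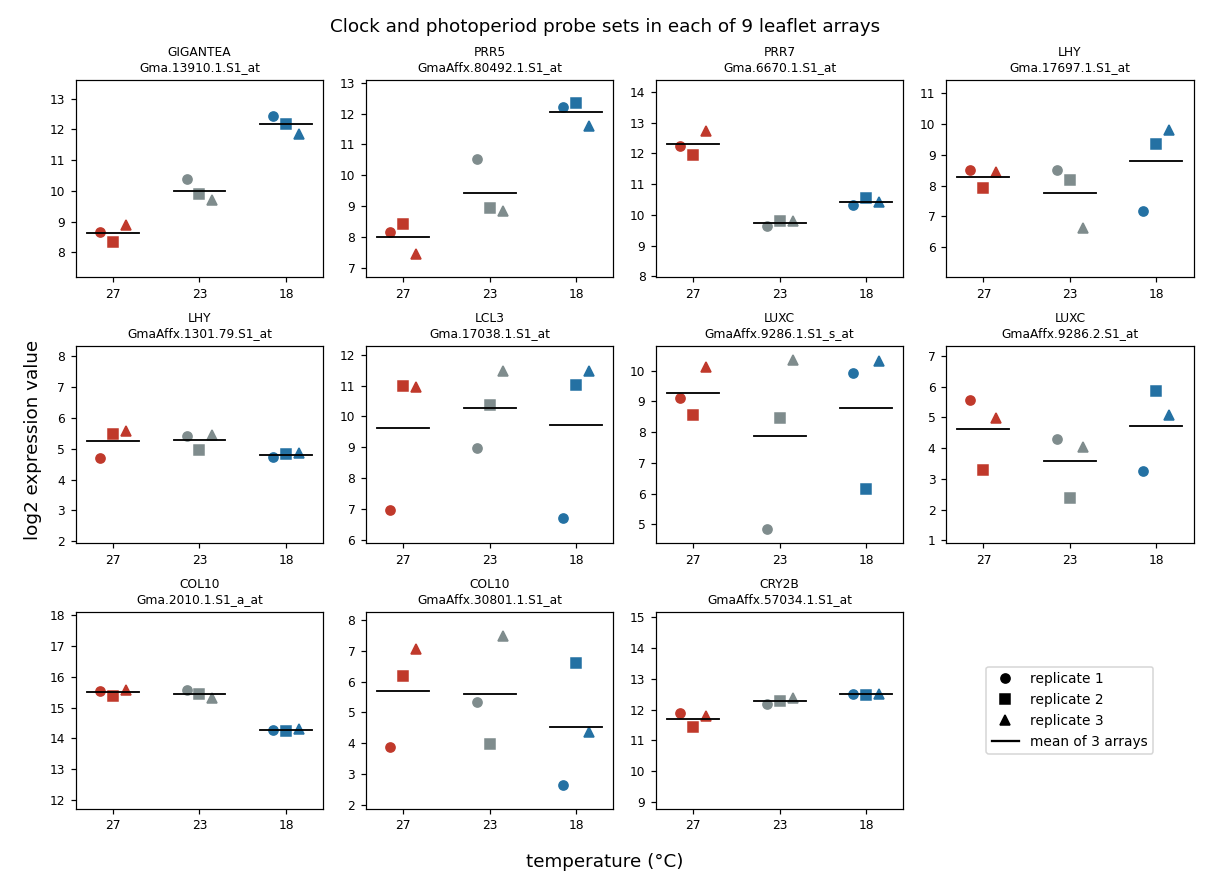
Log2 expression value (y axis) of each of the 11 clock and photoperiod probe-sets at 27, 23 and 18 °C (x axis), with 1 point per array, the marker giving the replicate number and the bar the mean of 3 arrays; every panel spans the same number of log2 units and carries the probe-set name. GIGANTEA, PRR5 and CRY2B climb from 27 to 18 °C without overlap, PRR7 is lowest at 23 °C, the brighter COL10 probe-set drops at 18 °C only, and LCL3 and one LUXC probe-set scatter within each temperature.

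The dawn genes LHY and LCL3 showed no order of this kind. LHY had 2 probe-sets. The first stood at 8.51, 7.92 and 8.45 at 27 °C, at 8.51, 8.18 and 6.63 at 23 °C and at 7.18, 9.36 and 9.82 at 18 °C. The 3 groups overlapped, with differences of -0.52 ± 0.77 for 23 °C against 27 °C, 1.02 ± 0.77 for 18 °C against 23 °C and 0.49 ± 0.77 for 18 °C against 27 °C. The last ranged from -0.02 to 1.30 without single arrays. The second LHY probe-set lay between 4.70 and 5.57 on all 9 arrays, with temperature means of 5.26 ± 0.48, 5.28 ± 0.27 and 4.81 ± 0.06 (SD, n = 3) at 27, 23 and 18 °C. Its 18 °C arrays, from 4.74 to 4.86, lay just below those at 23 °C, from 4.97 to 5.46, and overlapped those at 27 °C. Its replicate SD of 0.32 was below the 1.72 that was typical of probe-sets at its level.

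LCL3, a soybean MYB gene of the LHY and CCA1 type, differed more between leaflets of one temperature than between temperatures. Its values were 6.95, 10.98 and 10.94 at 27 °C, 8.98, 10.36 and 11.49 at 23 °C and 6.69, 11.03 and 11.47 at 18 °C. Replicate 1 was the lowest array at each of the 3 temperatures, and the other 6 arrays all lay between 10.36 and 11.49. The temperature means spanned 0.65 log2 units, while the replicate SD was 2.15. That SD exceeded the SD of 99.7% of the 3555 probe-sets within 0.5 log2 units of its mean level, whose median was 0.45. The medians of the 3 arrays numbered 1 were 8.05, 8.05 and 7.89 at 27, 23 and 18 °C. Whether these 3 arrays came from one plant is not stated in the labels. The part of any single plant in these low values was not tested.

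LUXC, named for LUX ARRHYTHMO of the evening complex, had 2 probe-sets. The one whose suffix marks probes shared by several transcripts stood at 9.10, 8.55 and 10.12 at 27 °C, at 4.85, 8.47 and 10.34 at 23 °C and at 9.92, 6.14 and 10.31 at 18 °C. Here replicate 1 at 23 °C and replicate 2 at 18 °C were low, other arrays than those low in LCL3 except for the former, and the groups overlapped throughout. The replicate SD of 2.14 exceeded that of 98.5% of the 4827 probe-sets at a similar level, and the differences were -1.37 ± 1.35, 0.91 ± 1.35 and -0.47 ± 1.35 for 23 °C against 27 °C, 18 °C against 23 °C and 18 °C against 27 °C. The difference between 23 °C and 27 °C thus had an SE about as large as itself. The other LUXC probe-set ranged from 2.38 to 5.85 with a replicate SD of 1.19, against a median of 1.59 at its level, and its groups overlapped as well.

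**Figure D2:**
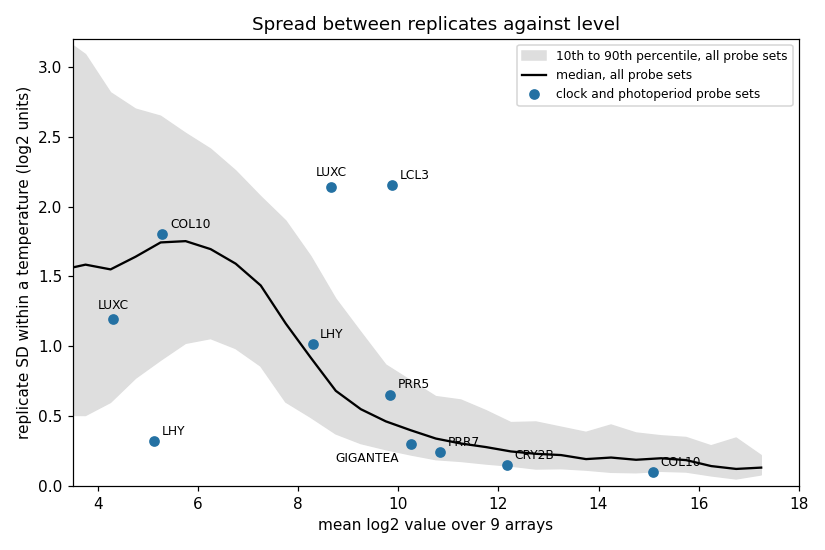
Replicate SD within a temperature (y axis, log2 units) against the mean log2 value over 9 arrays (x axis), with the 11 clock and photoperiod probe-sets as points, the median of all 36578 probe-sets as a line and their 10th to 90th percentile as a band. LCL3 (SD 2.15) and one LUXC probe-set (SD 2.14) stand above the band. The lower LHY probe-set (SD 0.32) lies below it, and the brighter COL10 probe-set (SD 0.10) just below it.

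On the photoperiod side, COL10, a B-box zinc finger gene of the CONSTANS-like type, was lower at 18 °C only. The probe-set that the study described as CONSTANS-like 5 and matched to Glyma13g01290.1 stood at 15.54, 15.39 and 15.58 at 27 °C, at 15.58, 15.46 and 15.31 at 23 °C and at 14.28, 14.25 and 14.32 at 18 °C. The leaflets at 27 and 23 °C overlapped, and every leaflet at 18 °C lay below them. The differences were -0.05 ± 0.11 for 23 °C against 27 °C, -1.17 ± 0.11 for 18 °C against 23 °C and -1.22 ± 0.11 for 18 °C against 27 °C. The last was -1.10 when arrays were centred on their medians and -1.36 after quantile normalisation. Its replicate SD of 0.10 was lower than that of most probe-sets at its level (median 0.20). The other COL10 probe-set ranged from 2.66 to 7.48 with a replicate SD of 1.80, and its difference between 18 °C and 27 °C was -1.16 ± 1.41, so a difference of the size seen on the first was not detectable at this spread.

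CRY2B, a cryptochrome 2 gene for a blue-light receptor, was slightly higher at each lower temperature. It stood at 11.89, 11.43 and 11.79 at 27 °C, at 12.18, 12.28 and 12.38 at 23 °C and at 12.51, 12.48 and 12.52 at 18 °C. The groups did not overlap, but the step from 23 °C to 18 °C was small, at 0.22 ± 0.17, and the difference between 18 °C and 27 °C was 0.80 ± 0.17. Another probe-set was described by the study as cryptochrome 2, carries 2 soybean loci in the array annotation and is no member. It stood at 14.87, 14.56 and 14.68 at 27 °C, at 13.30, 13.60 and 13.36 at 23 °C and at 13.22, 13.21 and 13.44 at 18 °C, so its leaflets at the lower temperatures lay below those at 27 °C and overlapped each other. It fell by 1.28 ± 0.14 at 23 °C (limma adjusted p = 0.00229) and by 1.41 ± 0.14 at 18 °C (limma adjusted p = 0.000454), opposite in sign to CRY2B under the deposited scale, centring and quantile normalisation alike. CRY2B kept its sign under quantile normalisation, but its difference of 18 °C against 27 °C no longer passed limma adjusted p under 0.05. Both probe-sets were selected on these arrays, and the difference between them was not tested.

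Over the 11 members, limma with adjusted p under 0.05 called 1 for 23 °C against 27 °C, 5 for 18 °C against 27 °C and 3 for 18 °C against 23 °C. Over all 36578 probe-sets the same rule called 0.776%, 2.13% and 0.943%, respectively. A limma fit with one common prior variance called 0, 1 and 0 of the members, and the methods' t-test 0, 0 and 0. At an unadjusted p under 0.05 the main limma fit had 4, 5 and 4 of the members. It had 3445, 4706 and 3823 of all 36578 probe-sets at that level. The member counts follow from how the members were chosen, and nothing is read from them. The 3 comparisons share arrays. A climb without overlap from 27 °C through 23 °C to 18 °C was seen in 3 of 11 members (GIGANTEA, PRR5 and CRY2B) and in 0.454% of all probe-sets. The order of PRR7, with 23 °C lowest, 18 °C between and 27 °C highest without overlap, was seen in 1 of 11 and in 0.221%. The order of COL10, with 18 °C below the other temperatures and these overlapping, was seen in 1 of 11 and in 2.63%. The median member difference was -0.05, 0.10 and 0.68 for the 3 comparisons in the order above, beside medians of -0.00, -0.06 and -0.05 over all probe-sets.

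**Figure D3:**
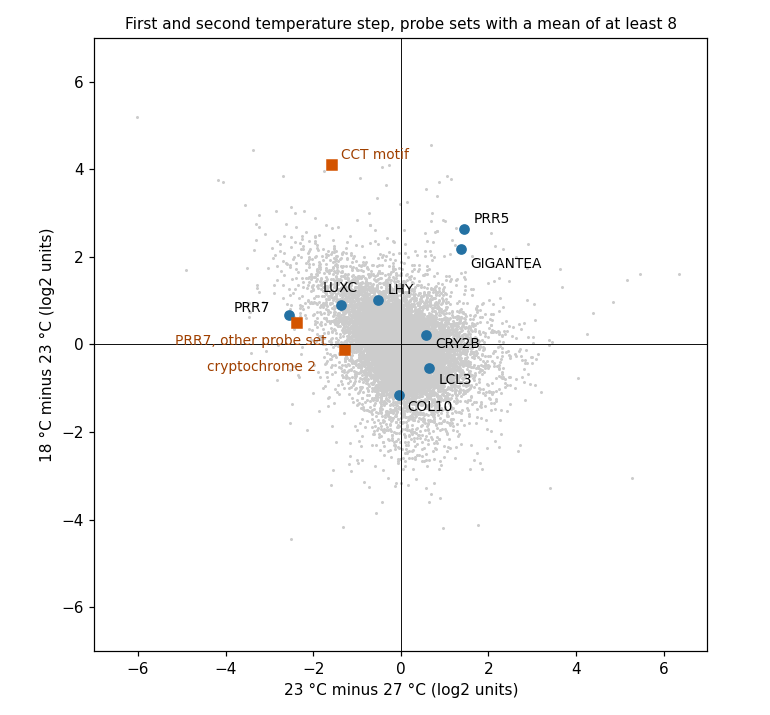
Difference of 23 °C minus 27 °C (x axis) against 18 °C minus 23 °C (y axis), both in log2 units, for the 15883 probe-sets averaging 8 or more over the arrays (grey), the members among them (blue circles) and 3 other probe-sets described by the study (orange squares). GIGANTEA and PRR5 lie apart from the grey mass at upper right, and the CCT motif gene lies at the top. PRR7 and the probe-set matched to the other PRR7 gene model both lie at left. Both axes use the 23 °C arrays.

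The wider list of clock, photoreceptor and flowering-time genes held 12 further probe-sets, 9 named by array symbol and 3 by the study's descriptions. Of the 9 found by symbol, limma called 0 in each comparison, and 2, 0 and 2 had an unadjusted p under 0.05 for 23 °C against 27 °C, 18 °C against 27 °C and 18 °C against 23 °C. The common prior variance and the methods' t-test also called 0 of them. Their medians were 0.34, 0.43 and 0.09, with differences from -2.55 to 1.84. Over all 36578 probe-sets limma called 0.776%, 2.13% and 0.943%, with 3445, 4706 and 3823 at an unadjusted p under 0.05. COL2A, another CONSTANS-like gene, stood at 14.42, 14.23 and 14.29 at 27 °C, at 14.73, 14.67 and 14.58 at 23 °C and at 14.29, 14.02 and 14.01 at 18 °C. It was highest at 23 °C without overlap, 0.55 ± 0.12 above 18 °C with the limma adjusted p just past the threshold (0.0645). PHYA, the far-red light receptor phytochrome A, was singled out after its values were seen and was also highest at 23 °C, with 15.07, 14.79 and 14.94 against 14.54, 14.52 and 14.37 at 27 °C (limma adjusted p = 0.201) and 14.82, 14.67 and 14.45 at 18 °C, which overlapped the 23 °C leaflets. The remaining 7 probe-sets were those of the blue-light F-box gene ZTL1 (2), the bZIP gene STF2 (2), the light-signalling gene COP10, and the floral genes AP1A and FT1A. Their replicate SDs ran from 1.05 to 2.19, and none reached an unadjusted p under 0.05.

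Among the 3 probe-sets named by description, which the study chose on these arrays and which are thus no independent evidence of a direction, the widest range of temperature means was that of a CCT motif gene matched to Glyma04g41490.1. The CCT domain is shared by CONSTANS and the pseudo-response regulators. The CCT motif gene stood at 9.81, 9.54 and 8.93 at 27 °C, at 8.72, 6.67 and 8.15 at 23 °C and at 11.92, 12.17 and 11.72 at 18 °C. The leaflets at 23 °C were the lowest and those at 18 °C the highest, with no overlap among the 3 groups. It rose by 4.09 ± 0.48 from 23 °C to 18 °C (limma adjusted p = 0.00312), and by 2.51 ± 0.48 over 27 °C (limma adjusted p = 0.0221), while its difference of -1.58 ± 0.48 between 23 °C and 27 °C had a limma adjusted p of 0.252. The call against 27 °C ended without 27 °C replicate 2 (0.0747) or 3 (0.0916) and without 18 °C replicate 1 (0.0922), 2 (0.0986) or 3 (0.0625). With a common prior variance or the methods' t-test, the calls of this probe-set and of the cryptochrome 2 probe-set ended, at adjusted p between 0.0701 and 0.275.

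**Figure D4:**
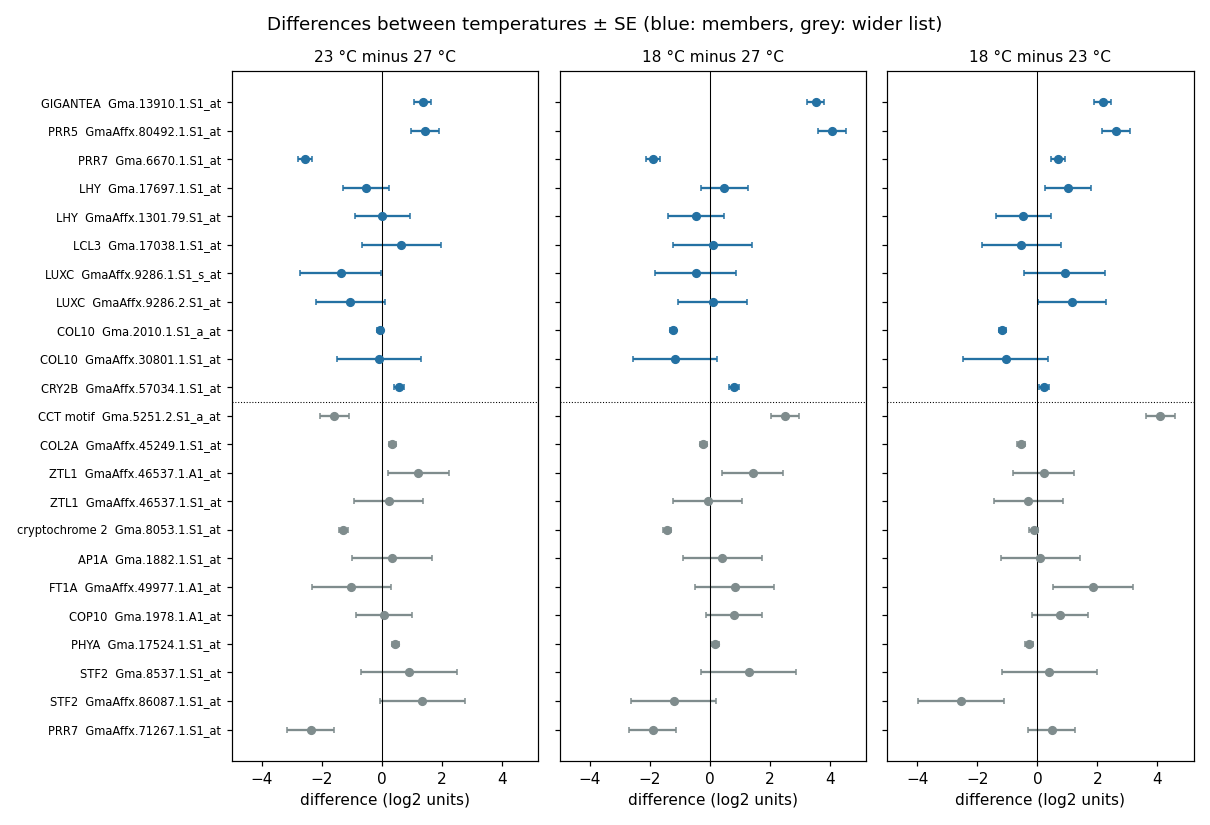
Difference between temperatures in log2 units (x axis) ± SE from limma, in 3 panels for 23 °C minus 27 °C, 18 °C minus 27 °C and 18 °C minus 23 °C, for the 11 members (blue) and the 12 further probe-sets of the wider list (grey), each with its probe-set name. GIGANTEA, PRR7, the brighter COL10 probe-set, CRY2B and cryptochrome 2 have narrow bars. The dimmer COL10 probe-set, LCL3, LUXC, ZTL1 and STF2 have wider bars, most of which span 0.

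To find profiles most like those of the members, each profile was set to its own mean over the 9 arrays and compared by its root mean square difference, among 1291 named probe-sets averaging 8 or more. Of these candidates 605 carried a study description and so had been picked for changing with temperature. Closest to PRR5 was GIGANTEA, at 0.52 log2 units, followed by MDH-1 (0.58) and an MtN21/EamA-like transporter (0.59). In the other direction PRR5 was only the fifth closest to GIGANTEA, behind SPX domain gene 1 of phosphate signalling (0.40), an NPH3 family protein of phototropic signalling (0.40) and multidrug resistance-associated protein 14 (0.43). The closest to PRR7 were a major facilitator superfamily transporter (0.34), a DAG-like protein of plastid development (0.35) and CP12-2 (0.40), whose family regulates the Calvin cycle and which stood at means of 10.39, 8.26 and 9.24 at 27, 23 and 18 °C. The probe-set matched to the other PRR7 gene model came only at place 193 in likeness to PRR7, at 0.97. The closest to COL10 were an unknown chloroplast protein (0.17), a light-harvesting gene of photosystem I (0.18) and a light-harvesting gene of photosystem II (0.19). For LHY and LUXC the closest were IDH at 0.54, G6PDH at 0.63 and FAD8.2 at 0.66, and MYB81 at 1.10, KTI-2 at 1.12 and PDH at 1.23, respectively. The temperature means of LHY spanned 1.02 against a replicate SD of 1.02, and those of LUXC 1.37 against 2.14. Likeness to these 2 profiles thus follows scatter between leaflets as well as temperature.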

How the data were processed

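RNA of 9 leaflets was hybridised to the Affymetrix Soybean GeneChip. The deposited log2 values were made by the authors with RMA (version not given in the sources used here) after removing probes with weak genomic DNA hybridisation, by a threshold not stated for the table. The column of the genomic DNA array (1 column) held no values and was not used. Names came from the array annotation (a single symbol for 8365 probe-sets, several for 356, none for 27857) and from 667 study descriptions, used for names only.

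Differences were fitted with limma 3.58.1 in R 4.3.3 (trended and robust prior, two-sided, 9 arrays, 6 residual degrees of freedom), with Benjamini-Hochberg adjustment over 36578 probe-sets and a threshold of 0.05, and the fit was tested on simulated data. With 3 plants in all, p-values measure only the spread between leaflets, and the number of arrays limits the precision. The members, lists, fit and rule for named genes were chosen with earlier results of these data known. That rule took all members, the probe-sets of the wider list that passed the test or share a member's family, and, for members averaging at least 8 with temperature means at least 1 log2 unit apart, the 3 closest profiles. Alternatives were a common prior variance, the methods' t-test, only the 6 arrays compared, a replicate block, centring, quantile normalisation, the brighter probe-sets only and leaving out each array. No sequences or coordinates were analysed here.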

Additional observations from a re-analysis of the deposited data

How the results depend on the processing

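Over all probe-sets, limma called 284 for 23 °C against 27 °C, 778 for 18 °C against 27 °C and 345 for 18 °C against 23 °C. A common prior variance took these to 1, 38 and 2, and the methods' t-test to 1, 0 and 3, with 2989, 4133 and 3331 at an unadjusted p under 0.05 in the latter. With only the 6 arrays compared, the first and the last were 159 and 160. Leaving out single arrays gave 96 to 248, 387 to 857 and 109 to 265. Centring took the share of higher calls at 18 °C from 60.3% to 72.3% against 27 °C and from 58.3% to 74.7% against 23 °C, while quantile normalisation took them to 52.3% and 54.3%. Deviations of same-numbered arrays correlated between -0.01 and 0.01 over probe-sets in 9 pairs. All probe-sets entered, dim ones with a wide spread included. These correlations therefore cannot tell whether equal numbers mark the same one of the 3 plants that were sampled at each temperature. The main fit used no pairing, and the replicate block gave 230, 698 and 282 calls. The cause of these shifts was not tested.

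Of 363 member differences recomputed under centring, quantile normalisation or without single arrays, 359 moved by less than the replicate SD, and the other 4 were all of the brighter COL10 probe-set. In 23 of the 363 the sign turned, over 12 differences that limma had not called, all of them of LCL3, LHY, LUXC or COL10. Of the 9 called member differences, none turned sign and 2 lost their call in these settings. That of CRY2B between 18 °C and 27 °C ended under quantile normalisation, without any 1 array at 27 or 18 °C and without 23 °C replicate 3. That of PRR5 between 18 °C and 23 °C ended without 23 °C replicate 2 or 3 and without any 1 array at 18 °C. Outside these settings, a common prior variance left 0, 1 and 0 member calls, in the order of comparisons above. The methods' t-test left 0, 0 and 0. The replicate block and the fit of only the 6 arrays compared were not tallied for the members. Because the members were chosen with these differences known, kept signs and calls are a description and no evidence for a change. The median replicate SD was 1.70 for probe-sets with a mean of 4 to 6 and 0.18 above 14, so the dimmer LHY, LUXC and COL10 probe-sets were measured at levels where leaflets of one temperature usually differ widely.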

Other observations

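Rubisco activase, which keeps the carbon-fixing enzyme active, and CAB3, a light-harvesting chlorophyll protein, belong to families known as outputs of the clock in Arabidopsis and stood in the leaf marker list. All 5 rubisco activase probe-sets were lower at 18 °C than at 27 °C, with differences from -1.64 to -0.19 and a median of -0.67. All 4 CAB3 probe-sets were lower too, from -1.90 to -0.27 with a median of -0.60, beside a median of -0.06 over all probe-sets. Limma called 0 of the 9, with 1 and 2 at an unadjusted p under 0.05, and the common prior variance and the methods' t-test called 0 as well. Over all 36578 probe-sets limma called 2.13% for 18 °C against 27 °C, with 4706 at an unadjusted p under 0.05. The 5 probe-sets of PSAD, a photosystem I subunit from the same list, were mixed, with 2 higher and 3 lower at 18 °C than at 27 °C, differences from -1.58 to 1.90 and a median of -0.76. Limma called 1 of these, which was lower, and that call was absent with the common prior variance and the methods' t-test. For 23 °C against 27 °C the medians of rubisco activase and CAB3 were -0.17 and -0.06, and limma called 0 of either, with 0 at an unadjusted p under 0.05. Over all 36578 probe-sets that comparison had 0.776% called and 3445 at an unadjusted p under 0.05.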
